A study of Mus musculus with 4 samples.

Results

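The expression of 10 genes whose products shorten the life of messenger RNA or silence it was compared at low and high glucose in mouse pancreatic islets, the small endocrine organs that secrete insulin and glucagon. They are the rows of the deposited gene count table named Zfp36, Zfp36l1, Zfp36l2, Zc3h12a, Zc3h12c, Ago1, Ago2, Ago3, Tnrc6a and Tnrc6b, 10 of 56748 genes, and each name matched 1 row. All 10 passed the filter on low counts, which kept 15665 genes. Islets were isolated from C57BL/6J males aged 6 to 8 weeks, and the labels give no transgene or gene deletion for either group. Incubation lasted 2 h, at 2.5 mM glucose (non-stimulating for beta cells) or 25 mM (strongly stimulating). A glucose-free period preceded it in both groups, so 2.5 mM is not an untreated baseline. Both groups also received cycloheximide (100 μg/mL), a blocker of translation, for the last 15 min. Each replicate pooled islets of several mice. There were 2 RNA libraries per glucose level, 4 in all, called replicate 1 and replicate 2 of each level.

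The members act at successive steps of mRNA turnover. Proteins of the tristetraprolin (TTP) family, encoded by Zfp36, Zfp36l1 and Zfp36l2, bind AU-rich elements in 3′ untranslated regions through paired zinc fingers and recruit the deadenylase complex that removes the poly(A) tail. Regnase-1 (Zc3h12a) and Regnase-3 (Zc3h12c) are endonucleases that cut stem-loops, best known from inflammatory mRNAs in immune cells. Argonaute proteins (Ago1, Ago2, Ago3) hold the microRNA that finds the target, and the GW182 proteins (Tnrc6a, Tnrc6b) bridge Argonaute to the deadenylases. Several of these mRNAs carry sequence matches to elements that their own products or microRNAs read, and binding was not measured.

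The AU-rich heptamer TATTTAT, in the DNA letters of the transcript, occurred in the 3′ untranslated region of 8 of the 10 genes, against 27.6% of 21007 mouse genes in the GENCODE vM21 annotation (GRCm38), taking for each gene the transcript with the longest 3′ region. Long regions hold a heptamer more often, and the median region of all genes was 961 bases. Zfp36 had 774 and Zc3h12a 856 bases, and all other members were above that median, from 1822 in Zfp36l2 to 12742 in Ago3. Each of the 3 TTP-family mRNAs held 3 heptamers, of which 1 lay within the nonamer TTATTTATT, a motif found in 7.66% of genes. Those sites, with the heptamer in capitals, are shown because they match the element that the family's own proteins bind. They lie at chr7:28376952-28376978, chr12:80108168-80108194 and chr17:84184915-84184941 (GRCm38, all on the minus strand).
Zfp36 site: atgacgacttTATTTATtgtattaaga
Zfp36l1 site: actgttggatTATTTATtttagaaatt
Zfp36l2 site: ctatttaactTATTTATtatcttgtga

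Argonaute 2 is a known target of miR-184 in mouse islets. The mature miRNA (RefSeq, GRCm38.p6, chr9:89802263-89802284, minus strand) is shown with its seed, bases 2 to 8, in capitals, above the match to that seed in the 3′ region of Ago2 at chr15:73106740-73106766 (minus strand, GRCm38). The same 7 bases occurred in Tnrc6b and in 2.48% of 21007 genes. MicroRNAs were not measured in these poly(A)-selected libraries, and a match is a description, not a shown site.
mmu-miR-184-3p: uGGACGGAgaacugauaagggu
Ago2 match: cagaatgcctTCCGTCCcagatgtcag

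RefSeq promoters (GRCm38.p6, 250 bases before to 50 after the start) were matched for 8 of the 10 genes, all but Zfp36l2 and Ago2. That of Zfp36, an immediate early gene of growth factor signalling in fibroblasts, is shown because its sequence held sites named for stimulus-driven factors of 2 families. The capitals mark, in order, an EGR site (GCGGGGGCG or GCGTGGGCG, in 3.47% of 32851 promoters on either strand) from -105 to -97 and a CArG box, the site of serum response factor (1.63% of promoters), from -58 to -49 relative to the start, which do not overlap. It lies at chr7:28379179-28379478, minus strand.
Zfp36 promoter: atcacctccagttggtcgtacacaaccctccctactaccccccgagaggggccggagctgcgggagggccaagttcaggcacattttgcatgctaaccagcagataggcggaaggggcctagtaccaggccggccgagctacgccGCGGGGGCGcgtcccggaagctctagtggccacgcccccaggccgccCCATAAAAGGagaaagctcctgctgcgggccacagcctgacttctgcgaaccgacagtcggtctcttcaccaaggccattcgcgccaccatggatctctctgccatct

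None of the other promoters held both of these motifs. No CArG box was found in the other 7 genes, and EGR sites were found in Ago1 alone besides Zfp36. An E-box, CACGTG (7.15% of promoters), lay in 1 of the 2 Tnrc6b start regions. The full cAMP response element TGACGTCA (1.79% of promoters), the AP-1 site TGACTCA or TGAGTCA (5.20%) and GTAAACA, read by FOXO factors (3.65%), were found in none of the 8 genes' promoters, and an NF-kB site (8.46%) was found in Zc3h12c. The short element TGACG, contained in the full cAMP response element (20.8% of promoters), was found in Zc3h12a, Zc3h12c, Ago3 and Tnrc6b. Both strands were searched for every motif.

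Total counts ran from 17279505 to 19136068 per library. The preparation had the markers of islets. Levels in CPM are read counts scaled to a common library size with TMM composition factors. The 6 beta-cell markers summed to 69250 to 97130 CPM in 3 libraries and to 176700 CPM in high-glucose replicate 2. With the replicate block 2 of the 6 rose in edgeR, where 1.85% of all genes did, and 0 in DESeq2 or limma-voom. Between the replicates numbered 1, 0 of the 6 were lower at 25 mM, and between those numbered 2, 2 were. The part of these marker values in the differences described here was not tested. The 3 alpha-cell markers summed to 24000 to 38800 CPM. Markers of non-endocrine cells were low by comparison, and 4 of their lists moved with the replicate number or with 1 library. The 5 stellate-cell markers summed to 517 and 486 CPM in both replicates numbered 1 (2.5 and 25 mM) and to 91.1 and 118 CPM in both numbered 2. The 4 ductal markers had 455 and 394 against 126 and 218 CPM. The 6 endothelial markers had 58.0 and 65.7 against 182 and 171 CPM, and the 7 acinar markers had 603 CPM in high-glucose replicate 1 against 225 to 278 elsewhere. The 9 macrophage markers, all detected, summed to 87.6 to 115 CPM. High-glucose replicate 2 stood apart: across genes it correlated at 0.9385 to 0.9598 with the remaining 3 libraries, which correlated at 0.9675 to 0.9807 among themselves.

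A dependence on gene length runs through the comparisons. Log2 ratios of 25 over 2.5 mM had a slope of -0.296 per doubling of exonic length between the replicates numbered 2 (pair 2) and of -0.058 between those numbered 1 (pair 1). The median log2 ratio of the longest sixth of genes was -0.14 in pair 1 and -0.67 in pair 2. In edgeR's quasi-likelihood test without a replicate block, 0 of 15665 genes passed an adjusted p under 0.05 (0%), so 0 of the 10 did, and 0% passed in limma-voom. With the replicate number as a block 6.86% of genes passed, 5.01% lower and 1.85% higher at 25 mM. Since this is bulk RNA, fewer cells of a type and less RNA per cell cannot be told apart.

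Across the 10 genes the lower levels at 25 mM outnumbered the higher. The GW182 gene Tnrc6b had the largest difference of the 10, 2.32-fold lower at 25 mM, and it was the member that passed with the block. At an unadjusted p under 0.05, where 6.67% of all genes were lower, 4 of 10 were lower: Tnrc6b and, at 1.60- to 1.64-fold lower levels, Zfp36l2, Ago3 and Tnrc6a. Zfp36 was 1.31-fold higher without passing. The median log2 fold change was -0.52 over the 10 genes and -0.01 over all genes tested, and with the length trend removed it was -0.17 against 0.03. The members were longer than most genes, with a median exonic length of 7482.5 against 4129 bases. The study's methods set thresholds of 0.05 on the unadjusted p and 0.58 on the size of the log2 fold change, and those 4 met both in edgeR, all lower, against 6.33% of all genes lower. The same 4 met both in DESeq2, where 4.24% of 26119 genes, taken without the filter on low counts, were lower. Of the 15665 genes that passed that filter, 1098 were lower in DESeq2. Among the 4 members, Ago3, Tnrc6a and Tnrc6b were in the longest sixth, where 16.5% of genes met these thresholds as lower in edgeR. The count of members past the adjusted threshold varied with the high-glucose library that was kept: 0 of 10 passed when replicate 2 was omitted, with 0.0255% of all genes, and 6 of 10, all lower, when replicate 1 was omitted, with 19.4% of all genes (12.3% lower).

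**Figure D1:**
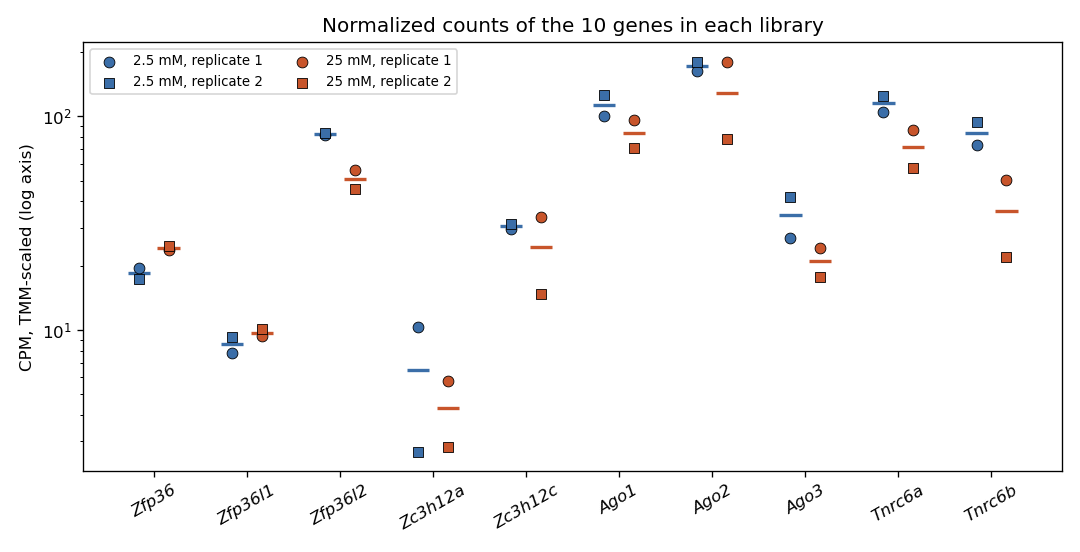
Normalized counts (CPM, log axis) of each of the 10 genes, with a point per library, circles for replicate 1 and squares for replicate 2, and a bar at the mean of each glucose level. Both 25 mM points of Zfp36l2, Ago1, Ago3, Tnrc6a and Tnrc6b sit below both 2.5 mM points, and the 25 mM square of Ago2, at 77.9 CPM, sits far below its circle at 179.5.

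The groups did not overlap in 7 of the 10 genes, 2 higher and 5 lower at 25 mM. Over all tested genes 48.3% did not overlap, 22.4% higher and 25.9% lower.

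Zfp36l2 was the most abundant of the 10 per length. Its level in TPM, which divides counts by exonic length and scales each library to the same sum, was 70.4 ± 3.32 at 2.5 mM (SD, n = 2). Ago1 followed with 41.6 ± 3.99 TPM, Ago2 with 36.7 ± 0.134, Tnrc6a with 27.1 ± 1.68, Zfp36 with 15.97 ± 2.28, Zc3h12c with 13.4 ± 0.317, Tnrc6b with 10.5 ± 1.12 and Zfp36l1 with 8.58 ± 0.492 TPM. Zc3h12a (6.98 ± 6.09 TPM) and Ago3 (6.19 ± 1.51 TPM) came last. Neighbours down to Zfp36l1 did not overlap between their replicates at 2.5 mM. The replicates of Zc3h12a, 11.3 and 2.68 TPM, spanned those of Zfp36l1 and Ago3 and reached into the range of Tnrc6b. At 25 mM Zfp36l2 stayed first with 38.9 ± 15.3 TPM. Its lower value, 28.1 TPM in replicate 2, was under those of Ago1 (37.0) and Ago2 (39.9) in replicate 1. Within each high-glucose library, however, Zfp36l2 was the highest of the 10. In replicate 1 it had 49.7 TPM, and Ago2 came next with 39.9. In replicate 2 Ago1 came next, with 18.8 TPM.

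In the TTP family, Zfp36l2 was lower and Zfp36 and Zfp36l1 were slightly higher at 25 mM. Zfp36l2, which mice need for normal blood formation (ENSMUSG00000045817, chromosome 17, 84491359 to 84495375 in the deposited table), had 81.5 and 83.6 CPM at 2.5 mM in replicates 1 and 2. At 25 mM it had 56.3 and 45.8 CPM. Both high-glucose libraries lay below both low-glucose libraries, and the gap was wide against the spread within either group. Its log2 fold change was -0.69 (SE 0.22, 95% interval -1.21 to -0.18) with an adjusted p of 0.446 in edgeR. In the blocked fit it did not pass either (adjusted p = 0.120). After length correction in the blocked fit it passed, at -0.74 with adjusted p = 0.00778, where 8.71% of all genes passed, 4.96% lower and 3.75% higher. Genes of its length sixth had median log2 ratios of -0.02 in pair 1 and 0.13 in pair 2, against -0.53 and -0.87 for Zfp36l2. Without high-glucose replicate 1 it also passed (adjusted p = 0.0135), and over the 4 omissions of a library its log2 fold change ran from -0.85 to -0.54.

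Zfp36 encodes tristetraprolin itself, which in mouse macrophages limits tumour necrosis factor mRNA (chromosome 7, 28076209 to 28079678 in the table). It had 19.4 and 17.4 CPM at 2.5 mM and 23.6 and 24.6 CPM at 25 mM. The high-glucose values lay above the low-glucose values, with log2 ratios of 0.29 in pair 1 and 0.50 in pair 2. In TPM, which is scaled without the TMM factors, the groups overlapped, at 17.6 and 14.4 against 21.2 and 15.3 TPM. The log2 fold change of 0.39 (SE 0.23, 95% interval -0.15 to 0.93) did not pass (adjusted p = 0.546), and it ran from 0.37 to 0.47 over the 4 omissions of a library. Zfp36l1, a paralog that is needed for vessel development in the mouse embryo, had 7.82 and 9.30 CPM at 2.5 mM and 9.34 and 10.1 CPM at 25 mM. The groups were separated by a gap smaller than the spread within the low-glucose group. With the TPM scaling they also overlapped, at 8.23 and 8.93 TPM against 9.75 and 7.28 TPM. Its log2 fold change was 0.18 (95% interval -0.50 to 0.86, adjusted p = 0.825).

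**Figure D2:**
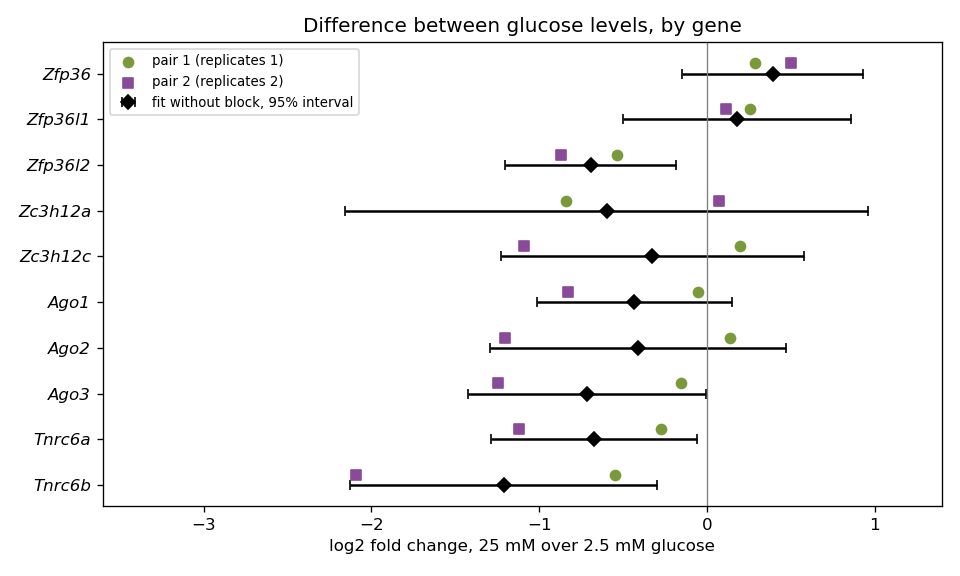
Log2 fold change of 25 over 2.5 mM glucose for each gene. Diamonds are the unblocked edgeR estimates with 95% intervals from the quasi-likelihood t distribution, circles the ratio of the replicates numbered 1 and squares that of the replicates numbered 2. The squares of Tnrc6b (-2.09), Ago3 (-1.25), Ago2 (-1.21), Tnrc6a (-1.12) and Zc3h12c (-1.09) lie well left of their circles.

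The Regnase values did not separate by glucose level. Zc3h12a, encoding Regnase-1 (chromosome 4, 125012216 to 125021633 in the table), was a low-count gene with 185 and 50 reads at 2.5 mM and 114 and 50 at 25 mM. These are 10.3 and 2.69 CPM at 2.5 mM and 5.76 and 2.82 CPM at 25 mM. Both replicates numbered 1 were higher than both numbered 2, as was the sum of the stellate markers given above, whose part in these values was not tested. The log2 fold change of -0.60 (SE 0.66, 95% interval -2.16 to 0.96, adjusted p = 0.737) became 0.68 without low-glucose replicate 1.

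Zc3h12c, encoding Regnase-3, a family member described in mouse macrophages, had 29.6 and 31.4 CPM at 2.5 mM and 33.9 and 14.7 CPM at 25 mM. High-glucose replicate 2 alone was low, and the other 3 libraries lay within a narrow range. Its log2 fold change was -0.33 (95% interval -1.23 to 0.58, adjusted p = 0.753). It became 0.17 without high-glucose replicate 2, and -1.05 with an adjusted p of 0.0187 without high-glucose replicate 1.

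All 3 Argonautes had lower means at 25 mM, and each had its lowest value in high-glucose replicate 2. Ago2, the mouse Argonaute that can cut a fully paired target (ENSMUSG00000036698, chromosome 15, 72967693 to 73056784 in the table), had 163 and 179.6 CPM at 2.5 mM and 179.5 and 77.9 CPM at 25 mM. High-glucose replicate 1 was level with the low-glucose libraries and replicate 2 was less than any other. The log2 fold change was -0.41 (SE 0.37, 95% interval -1.29 to 0.47, adjusted p = 0.677). Omitting high-glucose replicate 2 turned it to 0.082. Omitting high-glucose replicate 1 gave -1.14 (adjusted p = 0.00786). Once the length trend was removed it was -0.0068.

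Ago1, which binds microRNAs and represses without efficient cutting, had 100.0 and 126 CPM at 2.5 mM and 96.3 and 70.7 CPM at 25 mM. Both high-glucose values were lower, replicate 1 by a small margin. Its log2 fold change of -0.43 (95% interval -1.02 to 0.15, adjusted p = 0.538) became -0.22 when high-glucose replicate 2 was omitted and -0.21 when low-glucose replicate 2 was. Without high-glucose replicate 1 it was -0.68 and passed (adjusted p = 0.0498).

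Ago3, a neighbour of Ago1 on the minus strand of chromosome 4, had 27.0 and 41.9 CPM at 2.5 mM and 24.2 and 17.7 CPM at 25 mM. The groups did not overlap, and low-glucose replicate 2 was the high value. The log2 fold change was -0.72 (SE 0.30, 95% interval -1.43 to -0.0058, adjusted p = 0.475 in edgeR). It was -0.17 with the length trend removed and -0.31 without low-glucose replicate 2. Ago4, the paralog beside them in the same cluster and not among the 10, had 10.5 and 14.2 CPM at 2.5 mM and 9.85 and 8.52 CPM at 25 mM (log2 fold change -0.43, adjusted p = 0.584). Ago1, Ago2 and Ago3 lay in the longest sixth of genes, and their pair 2 ratios of -0.83, -1.21 and -1.25 stood beside a median of -0.67 for that sixth. With the length trend removed the 3 had log2 fold changes of -0.17 to -0.0068.

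Among the GW182 genes Tnrc6b fell in the fit with the block, and Tnrc6a was lower in both pairs without passing. Tnrc6b encodes a GW182 scaffold that binds Argonaute through glycine-tryptophan repeats (ENSMUSG00000047888, chromosome 15, 80595514 to 80825286 in the table, exonic length 23677 bases). It had 73.3 and 93.5 CPM at 2.5 mM and 50.1 and 21.9 CPM at 25 mM. Both high-glucose libraries lay below both low-glucose libraries, replicate 2 far more so, with log2 ratios of -0.55 in pair 1 and -2.09 in pair 2. The unblocked log2 fold change was -1.21 (SE 0.39, 95% interval -2.13 to -0.30, adjusted p = 0.449 in edgeR). With the block it was -1.32 (SE 0.29, adjusted p = 5.77e-04), a level 2.49-fold lower at 25 mM, against 5.01% of all genes lower and 15.8% of the longest sixth. With the block, DESeq2 (adjusted p = 0.0331, 1.38% of genes lower) and limma-voom (adjusted p = 3.12e-04, 4.6% lower) also passed it. DESeq2 without the block did not (adjusted p = 0.0660, 0.866% lower).

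The size of the Tnrc6b difference depended on the length trend and on the libraries. After length correction in the blocked fit the log2 fold change was -0.65 (SE 0.21, adjusted p = 0.0266). Without high-glucose replicate 2 the unblocked value was -0.72 and did not pass, and without high-glucose replicate 1 it was -1.93 (adjusted p = 0.00469). Tnrc6a (12706 bases) had 104 and 125 CPM at 2.5 mM and 86.2 and 57.5 CPM at 25 mM. The groups did not overlap, with the lower value again in high-glucose replicate 2. Its log2 fold change was -0.67 (SE 0.26, 95% interval -1.29 to -0.06, adjusted p = 0.454 in edgeR), and -0.24 with the length trend removed. It was -0.40 without high-glucose replicate 2, and -0.996 with an adjusted p of 0.0134 without high-glucose replicate 1.

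Tnrc6c, the paralog of the same family outside the 10, had 97.3 and 104 CPM at 2.5 mM and 68.3 and 44.2 CPM at 25 mM. With the block it fell by 0.87 on the log2 scale (SE 0.28, adjusted p = 0.0359), and with the length trend also removed it did not pass (-0.41, adjusted p = 0.219), nor did it in DESeq2 with the block (adjusted p = 0.126). All of Tnrc6a, Tnrc6b and Tnrc6c were lower at 25 mM in both pairs. Among all tested genes 35.9% were lower in both pairs. The Regnase paralogs Zc3h12b and Zc3h12d did not pass (log2 fold changes -0.42 and -0.42), and Zfp36l3, a placental gene of rodents, had 0 reads in every library, where a count of 0 allows up to 3 reads per library.

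**Figure D3:**
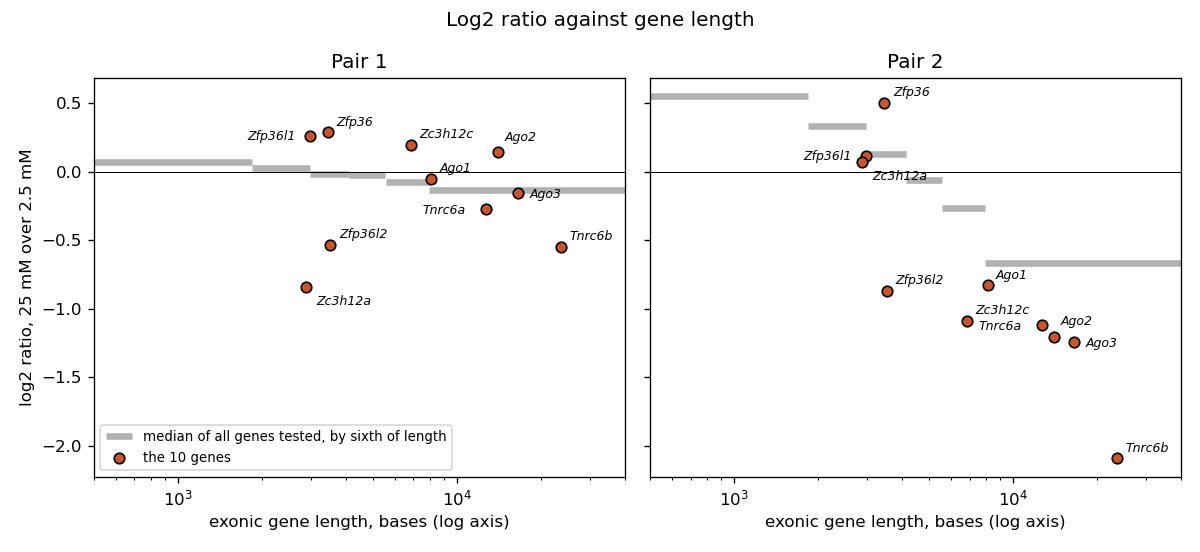
Log2 ratio of 25 over 2.5 mM against exonic gene length (bases, log axis) in each pair, with the 10 genes as points and the median of all tested genes in each sixth of length as grey bars. The bars go from 0.07 to -0.14 in pair 1 and from 0.55 to -0.67 in pair 2. Zfp36l2, Zc3h12a, Ago3, Tnrc6a and Tnrc6b lie below them in both.

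Against genes of like length, Zfp36l2, Zc3h12a, Ago3, Tnrc6a and Tnrc6b of the 10 were under the median of their sixth in both pairs. Zc3h12a, a low-count gene, had 0.07 in pair 2 against a median of 0.33. Over all tested genes 34.0% were under the median of their sixth in both pairs, and the difference of the members from that share was not tested. Ago3 was barely under in pair 1, at -0.15 against -0.14.

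In the machinery that these factors recruit, no gene passed among 21 deadenylases and their adaptors with the block, nor among 22 factors of decapping and translational repression, nor among 13 other RNA-binding regulators. The medians of these lists were -0.05, -0.17 and -0.28 in the blocked fit, against -0.01 for all genes. In the main edgeR fit, without the block, 0 passed in any list. At an unadjusted p under 0.05, which 10.5% of all genes met, the deadenylases had 1 higher and 4 lower of 21, the decapping genes 1 higher and 4 lower of 22, and the other regulators 0 higher and 2 lower of 13. Without high-glucose replicate 1, when 19.4% of all genes passed, these lists had 6, 7 and 5 genes past the adjusted threshold. DESeq2 passed 0 genes in each of the 3, with or without the block. After length correction in the blocked fit, 1 deadenylase gene was higher, and 1 gene of decapping was higher and 2 lower.

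The genes that fell in the other decay lists all belonged to the longest sixth. Of 18 genes of the exosome and the Ski complex, which degrade mRNA from the 3′ end, 1 fell with the block: Ttc37, a Ski subunit of 11802 bases, at -0.85 (SE 0.28, adjusted p = 0.0415). Of 9 microRNA biogenesis genes, 8 were tested and 2 fell. Tut4 and Tut7, enzymes that add uridines to RNA ends, had log2 fold changes of -0.99 and -0.95 (adjusted p = 0.0163 and 0.0239). Of 10 genes of nonsense-mediated decay 1 fell, the kinase Smg1 of 23984 bases, at -1.21 (adjusted p = 0.00208). With the length trend also removed Tut4 passed (-0.68, adjusted p = 0.0176), while Tut7, Ttc37 and Smg1 did not (adjusted p = 0.197, 0.222 and 0.0677). In DESeq2 with the block none of the 4 passed (adjusted p = 0.128, 0.171, 0.174 and 0.0614 for Tut4, Tut7, Ttc37 and Smg1), and none passed in the main fit. The counts of 1 of 18, 2 of 8 and 1 of 10 stand beside 5.01% of all genes and 15.8% of the longest sixth lower with the block. Unblocked edgeR without the filter on low counts passed 1 gene each of the microRNA biogenesis and nonsense-mediated decay lists, and without high-glucose replicate 1 it passed 4, 3 and 3 genes of the 3 lists.

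**Figure D4:**
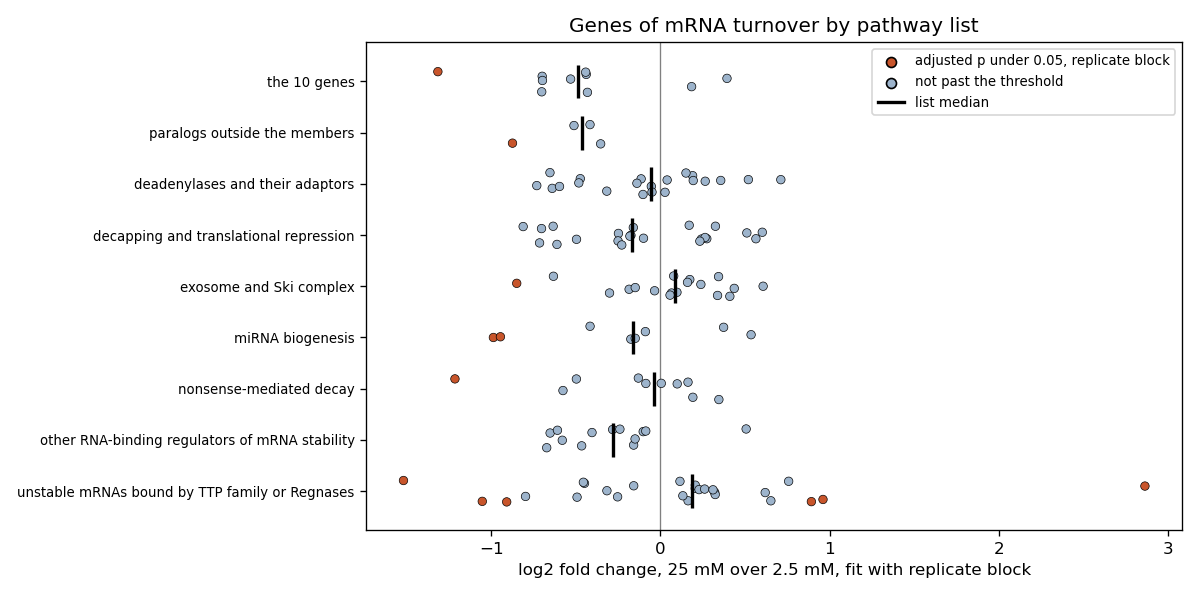
Log2 fold changes of 25 over 2.5 mM in the fit with the replicate block, with a point per tested gene in each list, a bar at the list median, and genes past the adjusted threshold in orange. Besides Tnrc6b and Tnrc6c, 4 genes of decay and biogenesis lists fell and none rose, and the list of unstable mRNAs has 3 on each side, with Fos at 2.86.

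Known targets of these factors moved in both directions. The list of unstable mRNAs bound by the TTP family or the Regnases held 29 genes, 26 of them tested, and 24 of the 29 had the heptamer in their 3′ region. With the block 3 rose and 3 fell, against 1.85% higher and 5.01% lower among all genes, and the list median was 0.18. Fos, an immediate early gene whose product is part of AP-1, went from 3.80 and 2.90 CPM to 16.9 and 34.9 CPM (log2 fold change 2.86, SE 0.32, adjusted p = 1.63e-15). Every high-glucose value of Fos exceeded every low-glucose value. Ier3, an early response gene, rose by 0.89 (adjusted p = 0.0296), and by 0.62 without passing once the length trend was removed (adjusted p = 0.0599).

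Plk3, a stress-responsive kinase, went from 324 and 383 CPM to 104 and 145 CPM (log2 fold change -1.52, SE 0.27, adjusted p = 5.04e-06), with no overlap between the groups. Myc, the growth-promoting transcription factor, fell by 0.91 (adjusted p = 0.0277). Lif, a cytokine (0.96), and Il1b, interleukin 1 beta (-1.05), also passed with the block but not in DESeq2 or limma-voom with the block. They were named after their values were seen. Myc and Ier3 passed in limma-voom with the block but not in DESeq2 with it. In the main edgeR fit 0 of the 26 passed, 2 were higher and 2 lower at an unadjusted p under 0.05, and DESeq2 without the block passed Fos and Plk3. Unblocked edgeR passed Fos once the length trend was removed (adjusted p = 0.0409) and 2 genes without the filter on low counts, and 0 to 6 genes when 1 library was omitted.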

How the data were processed

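Poly(A)-selected RNA of mouse islets was sequenced in 4 libraries. Per the labels and methods, reads were trimmed by fastp, mapped to mm10 by HISAT2 2.2.1 and assigned to genes by featureCounts. Raw counts, without normalisation, and exonic gene lengths were deposited by the authors. Strandedness and the handling of multi-mapping reads are not given in the sources used here, so reads shared by close paralogs or antisense genes could not be separated. Gene positions are printed as deposited, without a build, since the start matched GENCODE vM21 (GRCm38) for 1500 of 52088 shared nuclear genes and 0 of the 10 members. Sequences, with their own coordinates, come from GENCODE vM21 and RefSeq (GRCm38.p6).

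The main test was edgeR 4.0.16, run in R 4.3.3 (TMM, default filterByExpr, two-sided quasi-likelihood F test, Benjamini-Hochberg over 15665 genes). The same model also gave the 95% intervals. DESeq2 1.42.0, limma-voom (limma 3.58.1), other scalings, no filter and a loess length correction (span 0.5) were alternatives. Steps were tested on simulated data. Labels number the repeats, and by the study's methods islets of each mouse were divided between glucose levels, but neither calls the RNA libraries paired. Deviations from the group means correlated between libraries of the same number (Pearson r = 0.409 across genes, which are not independent). The number is read as a pairing by inference. With it as a block, 1 residual degree of freedom remains.

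Pair ratios used counts plus 0.5 over TMM-scaled library sizes. Members and lists were chosen with earlier results of these data known. Named genes were the members, their paralogs and, per list, up to 4 genes past the threshold with the smallest blocked p. With 2 against 2 libraries an exact permutation test cannot go below p = 0.333. P-values measure only the spread between these libraries, and edgeR shares that spread across genes. In the blocked fit Zfp36l2, with pair log2 ratios of -0.53 and -0.87, had an SE of 0.28. Tnrc6b, with -0.55 and -2.09, had 0.29. The blocked p of a gene is therefore not a measure of the gap between its own pairs.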

Additional observations from a re-analysis of the deposited data

How the results depend on the processing

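In the unblocked edgeR fit 0 genes and 0 of the 10 members passed. The count of all genes was 1075 with the replicate block, 597 with no filter on low counts and 185 in DESeq2. In edgeR it was 12 with the length trend removed and 1364 with the replicate block and the length trend removed. The count was 261 in DESeq2 with the block and 970 in limma-voom with the block. By unadjusted p and fold it was 1559 in edgeR and 1708 in DESeq2. The count of members was 1 with the block in edgeR, DESeq2 and limma-voom and with no filter (Tnrc6b each time), 2 with block and length correction together (Tnrc6b and Zfp36l2), and 4 by unadjusted p and fold in both tools. The block changed no other member's call. It placed 290 genes higher and 785 lower, and 587 and 777 after length correction. RLE factors, library size alone and limma-voom also gave 0 of each. Leaving out 1 library gave 4 to 3042 genes and 0 to 6 members, the highest of both without high-glucose replicate 1, where the lone high-glucose library was replicate 2 and is assumed to vary like the other group. The lowest count of genes was without high-glucose replicate 2. The sign of the log2 fold change reversed for 3 members among these omissions: Zc3h12a ran from -1.22 to 0.68 (the latter without low-glucose replicate 1), Zc3h12c from -1.05 to 0.17 and Ago2 from -1.14 to 0.082 (the latter of both without high-glucose replicate 2). The cause was not tested. Of the 10, Zc3h12a had the fewest reads, 50 to 185 per library, and the widest interval.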

Other observations

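Zc3h12a was not alone in following the replicate number. Lif had 15.7 and 24.8 CPM in the replicates numbered 1 (2.5 and 25 mM) and 2.53 and 6.43 CPM in those numbered 2. Col1a1, a fibrillar collagen of stellate cells, had 261 and 246 CPM against 31.6 and 54.9 CPM, and Kdr, an endothelial receptor for vascular growth factor, had 8.38 and 8.54 CPM against 54.6 and 33.02 CPM.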
